A study of Mus musculus with 4 samples.

Results

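Elongating spermatid-like cells were selected on the counts of 4 genes, Tnp1, Tnp2, Prm1 and Prm2, as the cells of each mouse testis with the largest share of counts in them. Of 812 cells in 4 mice, 162 were chosen, the 20% with the highest share in each mouse, which gave 19 of 96 and 48 of 242 cells in WT replicates 1 and 2, and 46 of 228 and 49 of 246 cells in Ctcf-cKO replicates 1 and 3. The other 650 cells of the same mice served as the comparison. Single cells had been captured on ddSEQ, a droplet system in which the RNA of each droplet carries its own barcode. All 4 mice were 15 weeks old and of the C56BL/6J background, as the labels spell it. The WT mice carried Ctcf wt/wt. The Ctcf-cKO mice were Stra8-iCre-Ctcf f/Δ, with 1 floxed and 1 deleted allele of Ctcf, the gene of the chromatin insulator protein CTCF, and a Cre recombinase driven by the promoter of Stra8, a gene switched on in male germ cells as they enter meiosis. Filtrates of 2 tubes were pooled in the Ctcf-cKO preparation, red blood cells were washed out, and somatic cells of the testis do not use this promoter. Each mouse gave 1 library, so the p-values of genotype comparisons below measure the spread between 2 mice per genotype. Those of elongating spermatid-like against other cells measure how the difference within a mouse varied over the 4 mice.

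As background, spermatids are haploid cells that no longer divide. After the round stage they elongate: histones in the nucleus are exchanged for transition proteins, encoded by Tnp1 and Tnp2, and these for protamines, encoded by Prm1 and Prm2, so that the chromatin of the sperm head becomes compact. The acrosome is built early in this course, the tail sheaths late, transcription then stops, and many mRNAs are stored and translated only days later.

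The genes that chose the cells lie on 2 chromosomes of GRCm38. Tnp1 lies on chromosome 1 from 73015074 to 73015909, and Tnp2 (10787936 to 10788660), Prm2 (10791380 to 10796134) and Prm1 (10796326 to 10805839) lie side by side on chromosome 16, with Prm3 (10790505 to 10790914) between Tnp2 and Prm2. All are on the reverse strand. These spans are from GENCODE, and those of Prm1 and Prm2 reach past the RefSeq starts used next. Their promoters are shown because the factor CREM is known to switch on several of these genes in round spermatids through a site called CRE. The 150 bases before each start site, from RefSeq on GRCm38.p6, are printed 5′ to 3′, and capitals mark a match to TGANGTCA or, read on the opposite strand, TGACNTCA, which is the CRE with any base at 1 position. The motif was chosen after the sequences were seen.
Tnp1, chr1:73015900-73016049, reverse strand: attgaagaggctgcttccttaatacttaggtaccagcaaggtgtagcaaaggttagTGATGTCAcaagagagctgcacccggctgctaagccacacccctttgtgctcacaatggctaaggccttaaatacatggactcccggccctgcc
Tnp2, chr16:10788656-10788805, reverse strand: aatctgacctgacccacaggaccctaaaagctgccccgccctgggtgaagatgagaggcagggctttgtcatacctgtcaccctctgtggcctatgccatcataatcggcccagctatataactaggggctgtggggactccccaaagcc
Prm1, chr16:10796824-10796973, reverse strand: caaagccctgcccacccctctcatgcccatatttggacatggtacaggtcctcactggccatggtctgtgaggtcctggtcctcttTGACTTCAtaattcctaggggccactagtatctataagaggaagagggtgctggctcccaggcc
Prm2, chr16:10792106-10792255, reverse strand: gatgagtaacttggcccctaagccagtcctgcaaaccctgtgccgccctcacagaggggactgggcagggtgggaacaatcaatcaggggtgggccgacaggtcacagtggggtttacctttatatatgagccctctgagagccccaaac
The match began 94 bases before the start of Tnp1 and 64 bases before that of Prm1, and the 250 bases before Tnp2 and Prm2 held none. Over all 32851 RefSeq promoters of that length, 2460 (7.49%) held a match.

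The cells were chosen by the share of the 4 genes, so it is given as a description only. In the elongating spermatid-like cells the lowest, median and highest share was 22.4%, 25.1% and 29.1% in WT replicate 1, 13.5%, 15.7% and 31.5% in WT replicate 2, 12.4%, 15.7% and 31.7% in Ctcf-cKO replicate 1, and 13.0%, 14.9% and 36.2% in Ctcf-cKO replicate 3. Median shares of the other cells were 12.4%, 9.62%, 7.39% and 8.80% in the same order. Barcodes under 200 genes, which hold free RNA rather than cells, had 4.64%, 8.96%, 9.38% and 8.67% of their counts in the 4 genes, and each of the 162 cells lay above the value of its own library and had counts of all 4 genes. The cut ran through a continuous range. The lowest cell inside it and the highest cell outside it had 22.37% and 22.35% in WT replicate 1, 13.54% and 13.52% in WT replicate 2, 12.45% and 12.44% in Ctcf-cKO replicate 1, and 12.99% and 12.94% in Ctcf-cKO replicate 3. Within 1 percentage point of the cut lay 3, 14, 9 and 10 cells on the inside and 5, 17, 16 and 17 on the outside. The cut of WT replicate 1 was far above the other 3: 36 of its 77 other cells had a share that would have placed them among the elongating spermatid-like cells of WT replicate 2.

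**Figure D1:**
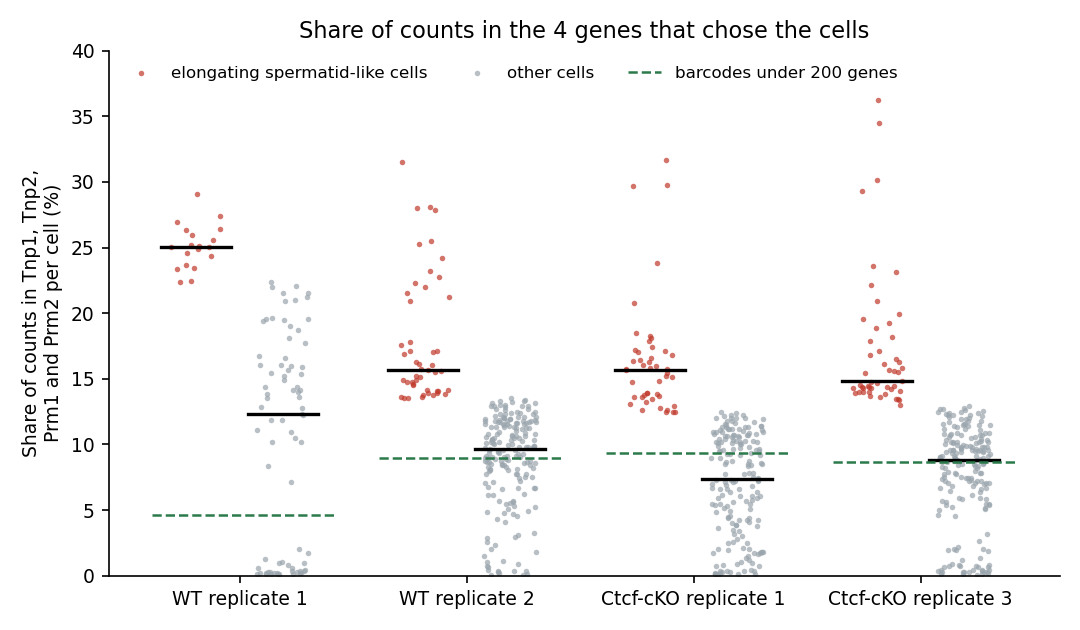
Share of counts in Tnp1, Tnp2, Prm1 and Prm2 (percent, vertical axis) of every cell in each of the 4 mice, with elongating spermatid-like cells in red, other cells in grey, black bars at medians and dashed lines at the share in barcodes under 200 genes. The red cells of WT replicate 1 start at 22.4%, those of the other mice at 12.4% to 13.5%.

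The libraries held 6701235 and 4859455 counts in WT replicates 1 and 2 and 2652665 and 1593546 in Ctcf-cKO replicates 1 and 3, so both Ctcf-cKO libraries were the shallower ones. Ctcf had 110 and 49 counts in the whole WT tables and 4 and 7 in the Ctcf-cKO tables. In the elongating spermatid-like cells Ctcf had 0 counts in every mouse, which allows up to 8.95, 5.91, 8.99 and 12.9 CPM (counts scaled to a common total) if each count is 1 molecule. The label of the genotype could thus not be checked in these cells and no difference in Ctcf was detectable at this depth. Of these cells, 0 of 19, 1 of 48, 17 of 46 and 26 of 49 had over 1% of their counts in genes of Leydig, Sertoli, macrophage and interstitial cells, against 9 of 77, 4 of 194, 142 of 182 and 167 of 197 other cells. No barcode was shared between elongating spermatid-like cells of different libraries. Among all cells 1 was shared, between WT replicate 2 and Ctcf-cKO replicate 1. A fall in the RNA of a gene per cell and a smaller part of the cells that use it cannot be told apart in the sums below.

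Transition proteins are replaced by protamines in the course of elongation, so the part of the 4 genes' counts that belonged to Tnp1 and Tnp2 is given for each mouse. It comes from the counts that chose the cells, with a far higher cut in WT replicate 1, and is a description. It was 45.0% and 36.3% in the elongating spermatid-like cells of WT replicates 1 and 2 (95% exact binomial intervals 44.7% to 45.3% and 36.0% to 36.6%, for counting error only) and 32.5% and 29.5% in those of Ctcf-cKO replicates 1 and 3 (32.1% to 32.9% and 29.1% to 29.9%). The intervals take each count as 1 molecule. Both Ctcf-cKO values lay below both WT values in these pooled counts, in which cells with more counts weigh more. The means of the pooled values were 40.7% ± 6.13 (SD, n = 2) and 31.0% ± 2.13 (SD, n = 2), a difference of -9.66 percentage points. The median over cells was 44.9%, 33.9%, 36.1% and 26.9% in the same order of mice, so the genotypes overlapped by that measure. In the other cells the part was 34.9%, 30.4%, 35.6% and 32.9%, and the genotypes overlapped. Prm1 made up 8.64%, 7.31%, 5.88% and 8.39% of all counts of the elongating spermatid-like cells, and Prm2 5.01%, 4.32%, 4.95% and 4.52%. Tnp1 made up 6.11%, 3.55%, 2.55% and 2.45%, so that it was lower in both Ctcf-cKO mice, whereas Tnp2 at 5.06%, 3.08%, 2.67% and 2.95% was highest in WT replicate 1 and alike in the other mice.

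For all further comparisons the 4 genes were taken out of the tables, and CPM are relative to the remaining counts. Elongating spermatid-like cells differed from the other cells of the same mice at 2092 of 8243 genes tested (25.4%; edgeR's quasi-likelihood test with mouse as block, Benjamini-Hochberg adjusted p under 0.05). Of these, 806 (9.78%) were higher and 1286 (15.6%) lower, and the median log2 fold change over all genes tested was -0.74. The direction was the same in all 4 mice for 687 of the higher and 1237 of the lower genes. Since the cells were ranked by 4 genes of the same contrast, these calls say which genes go with the share of the 4 genes, and are no independent evidence of what the cells are. With library totals in place of the TMM scaling, 566 genes were higher and 1923 lower, and the median of all genes was -0.99. The number of higher genes was 495 with WT replicate 2 left out, 424 with Ctcf-cKO replicate 1 left out and 456 with Ctcf-cKO replicate 3 left out, and the number of lower genes was 839 with WT replicate 1 left out and 602 with WT replicate 2 left out. Against the 30% of cells next in rank alone, 20 genes were higher and 9 lower of 5405 tested, and all 29 were among the calls above.

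Genes of late spermatids outside the rule were higher in the elongating spermatid-like cells. Of 25 such genes, 20 were higher, 1 was lower, and their median log2 fold change was 1.36, against -0.74 over all genes. For this and each list below, the shares over all genes were 9.78% higher and 15.6% lower. Their summed level was 85780, 74427, 76308 and 69730 CPM (WT replicates 1 and 2, then Ctcf-cKO replicates 1 and 3, as in all lists of 4 values), and 57162, 43520, 31937 and 29208 CPM in the other cells. The sum was thus higher in the elongating spermatid-like cells of every mouse. Prm3, a small gene of the protamine cluster, had 3395, 2495, 1920 and 2927 CPM against 1368, 1170, 934 and 1019 CPM (log2 fold change 1.51 ± 0.15 SE). Oaz3, which encodes an antizyme of polyamine metabolism found in late spermatids, had 11776, 9466, 10578 and 9166 CPM against 8163, 5560, 4110 and 3554 CPM (1.27 ± 0.12). The exception was Cmtm2a, which had 290, 892, 493 and 475 CPM against 1127, 1390, 882 and 973 CPM (-0.83 ± 0.18). The gene lists share genes, so their counts are not independent of each other. Odf1, Oaz3, Smcp, Akap4, Fscb, Tssk2, Tssk6, Gapdhs, H1fnt, Spem1 and Meig1 of this list are counted again as higher in lists below. Among the lower genes Cmtm2a, Ropn1l and Tbpl1 also recur between lists.

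Nuclear genes differed in both directions. Of 15 genes of histone removal and spermatid histone variants, H1fnt, H2al2a and Tssk6 were higher, H2afx, H2afy, H3f3b and Epc1 lower, and the median was 0.14. H1fnt, a linker histone variant needed to condense the spermatid nucleus, had 5965, 3020, 2395 and 3011 CPM against 1651, 1222, 929 and 1078 CPM (log2 fold change 1.77 ± 0.14). Hils1, another linker histone of spermatids, had 1456, 2765, 2295 and 2557 CPM against 2587, 2009, 1707 and 2080 CPM, so that it was lower in WT replicate 1 and higher in the other mice, and it did not pass the threshold (0.36 ± 0.14, adjusted p = 0.051 from edgeR). Among 21 regulators of spermatid transcription only Hmgb4 was higher, and 7 were lower, among them Crem, Tbpl1, Gtf2a1l and Sox5 (median -0.26). Hmgb4, a germ cell protein with HMG boxes, had 8250, 4361, 2391 and 2969 CPM in the elongating spermatid-like cells and 2028, 1543, 1151 and 1107 CPM in the other cells (1.77 ± 0.14), and its level and its difference were both greatest in WT replicate 1. Of 8 tested genes of the Ctcf and cohesin list 0 were higher (0 also at an unadjusted p under 0.05 and in DESeq2) and 5 were lower, among them the meiotic cohesins Stag3 (-1.95 ± 0.45) and Rec8 (-1.87 ± 0.58). The lower share was 62.5%, against 15.6% over all genes.

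**Figure D2:**
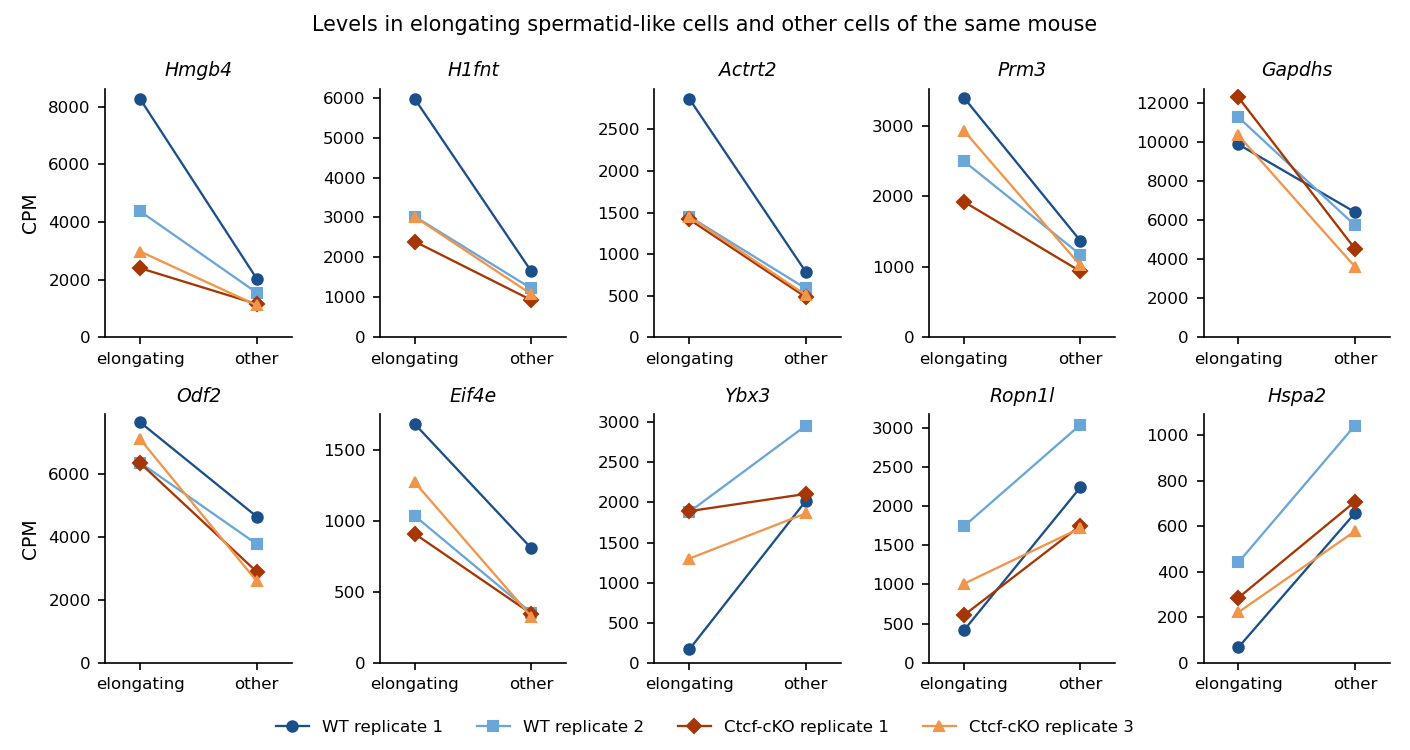
CPM (vertical axes) of 10 genes in elongating spermatid-like cells and other cells of the same mouse, with 1 line per mouse. Every line of Hmgb4, H1fnt, Actrt2, Prm3, Gapdhs, Odf2 and Eif4e falls from left to right and every line of Ybx3, Ropn1l and Hspa2 rises; Ybx3 in WT replicate 1 starts at 167 CPM.

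Genes of the sheaths around the sperm tail were mostly higher. The outer dense fibres run along the axoneme and the mitochondrial sheath surrounds them, and 11 of their 19 genes were higher and 3 lower (median 0.83). Odf2, a structural protein of the outer dense fibres, had 7623, 6342, 6328 and 7084 CPM against 4635, 3764, 2883 and 2584 CPM (log2 fold change 1.28 ± 0.12). Odf1 (1.24 ± 0.13) and Smcp, a cysteine-rich protein of the mitochondrial capsule (1.19 ± 0.12), were higher as well. The 3 lower genes were Gk2, Dnajb13 and Tekt4. Of 15 fibrous sheath genes, 8 were higher and 3 lower (median 0.56). Akap4, the main protein of the fibrous sheath, had 1924, 2765, 3530 and 3994 CPM against 1628, 1579, 1566 and 1540 CPM (1.16 ± 0.14), with the smallest difference in WT replicate 1. Tcp11 (1.06 ± 0.14) and Spa17 (0.87 ± 0.14) were also higher. Ropn1l, which is linked to the radial spokes of the axoneme, was lower at 412, 1743, 607 and 1009 CPM against 2242, 3043, 1752 and 1722 CPM (-1.10 ± 0.16).

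The axoneme, the microtubule core of the tail, went the other way. Of its 33 genes, 17 were lower (51.5%, against 15.6% over all genes) and 3 higher (9.09%, against 9.78%), with a median of -1.12. Dnah3, Dnah8, Rsph1, Spag6, Tekt1 and Tekt2 were among the lower ones. The 3 higher genes were the light chains Dynll1 (log2 fold change 0.92 ± 0.16) and Dynll2 (1.39 ± 0.15), which also serve outside the axoneme, and Tppp2 (1.57 ± 0.17), a tubulin-binding protein. Tppp2 had 1543, 1292, 1449 and 1310 CPM in the elongating spermatid-like cells and 936, 631, 438 and 390 CPM in the other cells, and the groups did not overlap.

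Genes of the acrosome, the vesicle over the sperm head, were lower too. Of 29 acrosome and gamete fusion genes, 20 were lower (69.0%, against 15.6% over all genes) and 2 higher (6.90%, against 9.78%), with a median of -1.39. The lower ones included Acrv1, Acr, Spaca1, Spam1, Zpbp and Izumo1. Dkkl1, a protein of the acrosome, had 444, 971, 357 and 903 CPM against 1114, 1622, 997 and 898 CPM (log2 fold change -0.61 ± 0.17), with no difference in Ctcf-cKO replicate 3. Acrbp, which binds the acrosomal protease precursor, changed by -0.61 ± 0.23. The 2 higher genes were Izumo3 and Crisp2, and Crisp2, a secretory protein of acrosome and tail, changed by 0.77 ± 0.13 and was slightly lower in WT replicate 1, at 4141 against 4398 CPM. The manchette, a transient skirt of microtubules that shapes the head, gave 10 higher and 6 lower of 35 genes (median 0.13). These are 28.6% and 17.1%, against 9.78% and 15.6% over all genes, so the lower share was close to that of all genes. Actrt2, an actin-related protein, had 2868, 1451, 1417 and 1448 CPM against 786, 587, 482 and 508 CPM (1.83 ± 0.16). Spem1, required to remove cytoplasm from the sperm head, had 4026, 3187, 3237 and 3228 CPM against 2451, 1512, 1128 and 1028 CPM (1.50 ± 0.14). Spata6, of the head-tail junction, was higher by 1.0 ± 0.15.

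**Figure D3:**
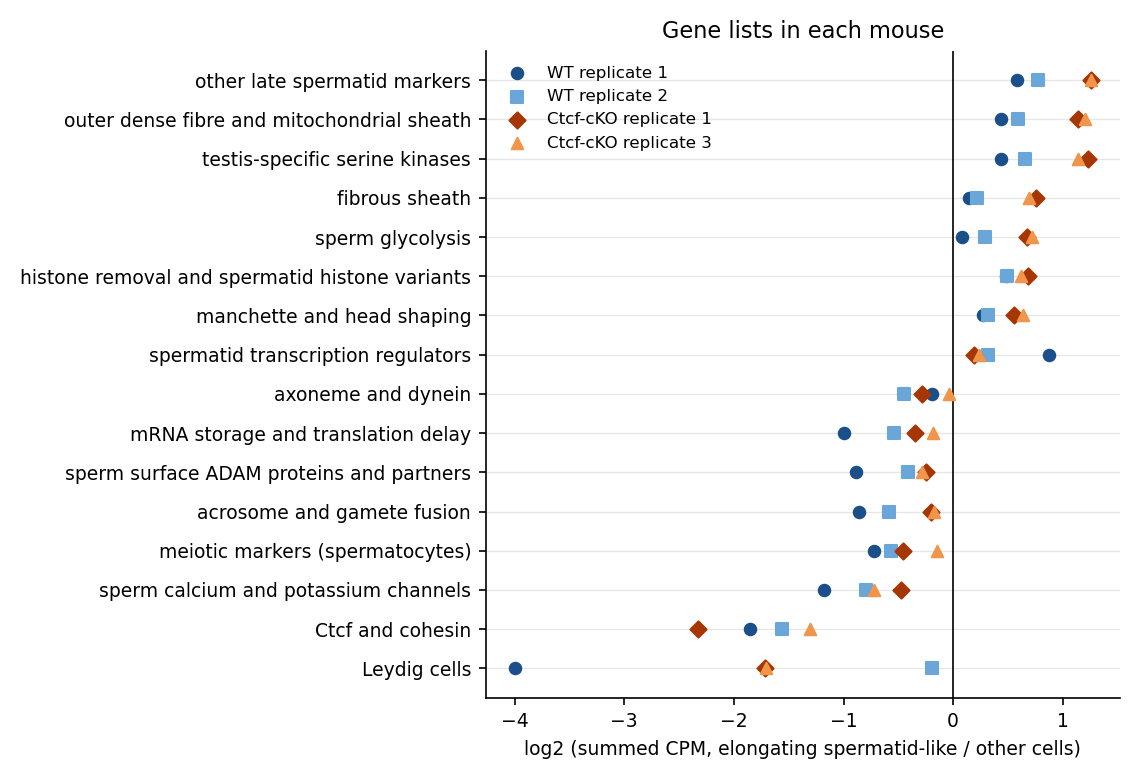
Log2 ratio (horizontal axis) of the summed CPM of each gene list in elongating spermatid-like cells to that in other cells of the same mouse, with 1 symbol per mouse. Late spermatid markers and outer dense fibre genes lie right of 0 in all 4 mice, acrosome, mRNA storage and Leydig genes left of 0.

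Testis-specific serine kinases act during elongation, and 4 of 6 genes of this list were higher and 0 lower (median 1.13); at an unadjusted p under 0.05 the lower count was 1, and in DESeq2 it was 0. Tssk6 had 2646, 2309, 2852 and 1902 CPM against 1564, 1319, 842 and 675 CPM (log2 fold change 1.47 ± 0.15). Tsks, a substrate of these kinases, changed by 1.40 ± 0.20, Tssk3 by 1.15 ± 0.17 and Tssk2 by 1.11 ± 0.15. Sperm draw energy from glycolysis with enzymes of their own, and 9 of 19 such genes were higher and 5 lower (median 0.65). Gapdhs, the glyceraldehyde phosphate dehydrogenase of sperm, had 9892, 11284, 12299 and 10349 CPM against 6418, 5746, 4544 and 3622 CPM (1.40 ± 0.12). Pgam2 (1.04 ± 0.15) and Pgk2 (0.97 ± 0.15) were higher. Ldhc, the lactate dehydrogenase of germ cells from meiosis on, was lower at 1868, 4570, 3273 and 3017 CPM against 5545, 6638, 4582 and 3815 CPM (-0.46 ± 0.13), most clearly in WT replicate 1.

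Of 25 genes of mRNA storage and delayed translation, 15 were lower and 3 higher (median -1.21). The lower ones held the DNA- and RNA-binding proteins Ybx1 and Ybx3, the helicases Ddx4 and Ddx25, Piwil1, Maelstrom (Mael) and the poly(A)-binding proteins Pabpc1, Pabpc2 and Pabpc6. Eif4e, which binds the mRNA cap, was higher with 1686, 1037, 910 and 1273 CPM against 809, 352, 346 and 326 CPM (log2 fold change 1.75 ± 0.17), and so was Paip2, a repressor of translation (1.01 ± 0.17). Ybx2 was the third higher gene. Of 23 genes of ADAM surface proteins and their partners 9 were lower and 2, Calr3 and Ace, higher (median -0.83). Of 17 sperm ion channel genes 5 were lower and 2, Catsperd and Atp1a4, higher (median -1.02). The lower share was 60% for mRNA storage, 39.1% for ADAM and 29.4% for channel genes, against 15.6% over all genes. The median of all genes was -0.74, so the ADAM median lay close to it. Catsperz, a subunit of the sperm calcium channel, changed by -1.37 ± 0.24, and Atp1a4, the sodium pump of sperm, by 0.95 ± 0.21.

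Most Leydig genes and part of the meiotic markers were lower, and few genes of the other somatic lists passed the threshold. Of 21 meiotic markers 8 were lower, with Sycp1, Sycp2 and Spo11 among them, and the median was -1.44. Hspa2, a chaperone of spermatocytes, had 67, 441, 286 and 222 CPM against 657, 1043, 707 and 578 CPM (log2 fold change -1.44 ± 0.21), and Tbpl1, a TBP-like factor, changed by -1.68 ± 0.25. Syce2, a protein of the synaptonemal complex, was higher at 1396, 1307, 1056 and 1226 CPM against 1059, 726, 535 and 454 CPM (1.17 ± 0.17). Of 4 spermatogonia genes 1, Dazl, was lower and 0 higher. Of 20 Leydig genes 14 were lower and 0 higher (median -1.60), and DESeq2 called 7 lower. Ptgds, a prostaglandin synthase of Leydig cells, had 12, 84, 1635 and 1580 CPM against 535, 92, 6139 and 4895 CPM (-1.63 ± 0.17), so that its level in the elongating spermatid-like cells differed between genotypes far more than between classes. Agt, the gene of angiotensinogen, changed by -1.84 ± 0.22. Of 16 Sertoli genes 1 was lower, of 15 macrophage genes 3 (Lyz2 by -1.48 ± 0.33), of 11 interstitial genes 3 (Sparc by -1.22 ± 0.28), of 4 haemoglobin genes 1 and of 8 mitochondrial genes 1. The lower share was 70.0% for Leydig, 38.1% for meiotic, 6.25% for Sertoli, 20% for macrophage, 27.3% for interstitial and 12.5% for mitochondrial genes, against 15.6% over all genes, and the last 4 of these shares rest on 1 to 3 genes each. None of the genes in the spermatogonia, somatic, haemoglobin and mitochondrial lists was higher, by edgeR, by DESeq2 or at an unadjusted p under 0.05. Over all 62 genes tested of the 4 somatic lists the lower count was 21 in edgeR, 26 at an unadjusted p under 0.05 and 11 in DESeq2. Of 12 genes of dissociation stress Jund was higher (1.29 ± 0.30) and 3 were lower (25.0%). Once other cells with over 1% of somatic counts were left out, 765 genes were higher and 764 lower. Leydig genes such as Ptgds (1.34) and Agt (1.32) were then higher in the elongating spermatid-like cells. These genes are on the lists that removed the other cells, and elongating spermatid-like cells were not filtered in this way. The change of sign therefore cannot be read as a difference between the classes, and its cause was not tested.

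The genes with the largest differences were mostly little known. Among genes with at least 50 CPM in elongating spermatid-like cells and higher in all 4 mice, the largest log2 fold change belonged to the pseudogene Gm4875, with 159, 72.3, 39.3 and 47.5 CPM against 41.1, 19.3, 5.53 and 7.36 CPM (2.53 ± 0.57). The noncoding genes 4930579D09Rik (2.46 ± 0.67), Gm4665 (2.45 ± 0.27), 1700012D16Rik (2.45 ± 0.38), Tbc1d22bos (2.32 ± 0.56), 1700084D21Rik (2.24 ± 0.60) and Gm20163 (2.23 ± 0.67) followed. Gm4665, Tbc1d22bos and Gm20163 are antisense to other genes and 1700012D16Rik lies within an intron, and where reads were counted without strand they could not be told from their partners. The protein-coding genes were Gramd2 (2.44 ± 0.53), Odf3b of the outer dense fibres (2.37 ± 0.32), Wnt3, a secreted ligand (2.28 ± 0.30), Cdkn1c, an inhibitor of cyclin-dependent kinases (2.26 ± 0.28), and Cby3 (2.25 ± 0.27). Wnt3 had 337, 212, 171 and 333 CPM against 71.9, 93.2, 53.4 and 36.8 CPM, and the groups did not overlap. Cdkn1c had 409, 282, 239 and 322 CPM against 129, 89.2, 54.3 and 51.5 CPM, and the groups did not overlap either.

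At the other end, 53 of the lower genes had 0 counts in the elongating spermatid-like cells of all 4 mice, and so passed the filter on low genes through the other cells alone. Among the lower genes named by the same rule, Dusp1, an immediate early phosphatase, had 1 count in all elongating spermatid-like cells and 229 in the other cells, a ratio of 51.4 between other and elongating spermatid-like cells (95% exact interval for counting error 9.13 to 2038). The interval takes each count as 1 molecule. Swt1 had 0, 9.64, 0 and 0 CPM against 91.0, 78.5, 72.8 and 64.4 CPM (log2 fold change -4.39 ± 0.83). Tra2b, a splicing factor, changed by -4.08 ± 0.87, Brix1, of ribosome assembly, by -3.94 ± 0.84, and Pop4, of RNase P, by -3.62 ± 1.04. Klf4, a transcription factor found in round spermatids, had 15.9, 0, 0 and 21.1 CPM against 139, 87.1, 59.0 and 140 CPM (-3.63 ± 0.64). Dnah3, a heavy chain of the axonemal dyneins, changed by -3.69 ± 0.91. The others were 1700010K23Rik (-3.85 ± 0.85), Pgbd5 (-3.78 ± 0.87), Gm12346 (-3.59 ± 0.55), Immp1l (-3.54 ± 0.90) and Cep112os1 (-3.25 ± 0.81). Each of the 12 rests on at most 12 counts in the elongating spermatid-like cells, so the size of its difference is imprecise.

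Ranking all cells by the share of the 4 genes, with the elongating spermatid-like cells as the first class and the other cells in 4 further classes, shows how far these levels set the cells apart. This is a description along the ranking and carries no test. Late spermatid markers outside the rule went down with rank in 3 mice, from 74427 CPM to 64979, 59068, 50284 and 28417 CPM in WT replicate 2, from 76308 to 57310, 40695, 32050 and 12705 CPM in Ctcf-cKO replicate 1, and from 69730 to 45059, 38548, 30933 and 17282 CPM in Ctcf-cKO replicate 3. In WT replicate 1 they did not, with 85780, 77982, 97421, 81800 and 17655 CPM, so only the last class stood apart. These markers go with the ranking by the 4 genes and are no independent evidence for the name of the cells. In WT replicate 1 cells of lower rank carried the markers at the same level. Gapdhs behaved in the same way there, at 9892, 8036, 13379, 9489 and 1290 CPM. Acrosome genes were lowest in the first class of both WT mice (6112 of at most 13799 CPM and 8878 of at most 14808 CPM) and of Ctcf-cKO replicate 1 (6927 of at most 8675 CPM), and in Ctcf-cKO replicate 3 they were lowest in the third class, at 5145 CPM against 6144 CPM in the first. Leydig genes went from 5625 to 29656 CPM over the classes of Ctcf-cKO replicate 1 and from 5151 to 19848 CPM in Ctcf-cKO replicate 3. They had 119, 124, 249, 4249 and 2454 CPM in WT replicate 1, higher in the last 2 classes, and lay between 340.2 and 657 CPM in WT replicate 2.

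**Figure D4:**
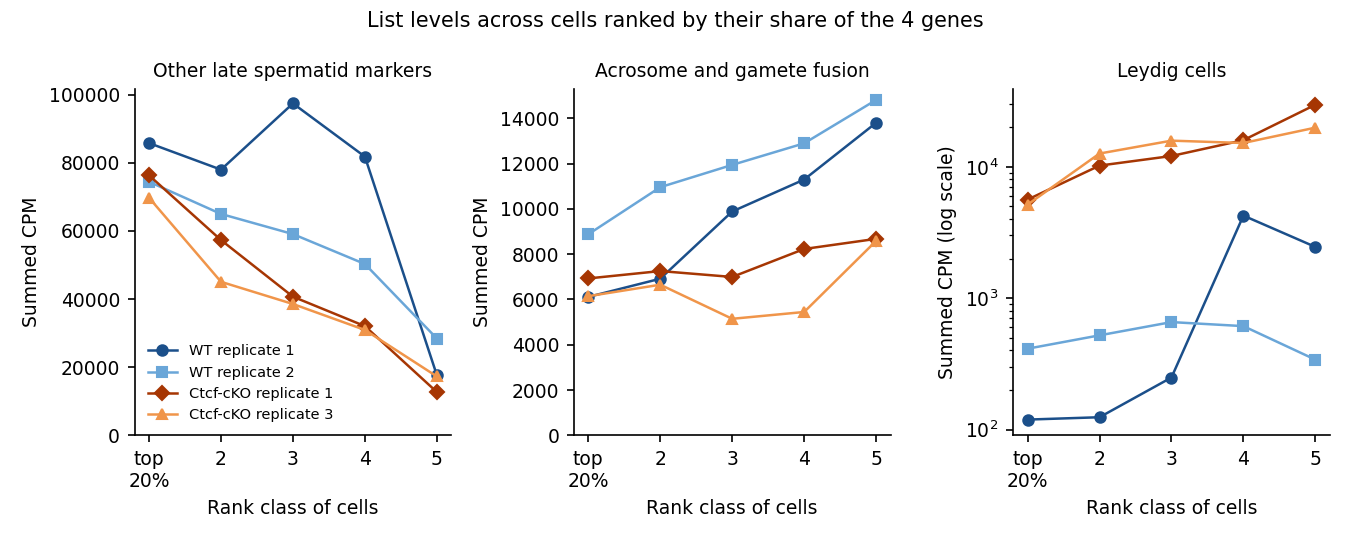
Summed CPM (vertical axes, the right one on a log scale) of 3 gene lists in cells ranked by their share of the 4 genes, from the elongating spermatid-like cells (top 20%) through 4 classes of other cells, with 1 line per mouse. Late spermatid markers go down with rank in 3 mice and stay between 77982 and 97421 CPM over the first 4 classes of WT replicate 1.

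Elongating spermatid-like cells had somewhat more counts than the other cells. Median counts per cell were 16625, 8437, 5882.5 and 3346 against 14470, 8196.5, 4575 and 2167, higher in 4 of 4 mice, with a mean log2 ratio of 0.31 ± 0.25 (SD, n = 4; two-sided exact permutation test of paired differences, p = 0.12, the smallest that 4 mice can give). When every cell was thinned to 900 counts, the median number of genes was 454, 532, 495 and 467 in elongating spermatid-like cells and 509, 596, 535 and 471 in other cells, lower in 4 of 4 mice by 40.7 genes on average. A larger share of the 4 genes leaves fewer of the 900 counts for other genes, so this difference is partly set by the choice of cells. With the 4 genes left out, the difference was -17.2 genes, with 3 of 4 mice lower, and did not pass the test (two-sided exact permutation test, p = 0.375), and 2 elongating spermatid-like cells and 5 other cells of Ctcf-cKO replicate 3 had fewer than 900 counts and were left out.

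The ratio of elongating spermatid-like to other cells was then compared between WT and Ctcf-cKO, the comparison at which the choice of cells aimed. The interaction is the log2 ratio in Ctcf-cKO minus that in WT, so its sign gives the direction in which the ratio moved and not whether the classes lay further apart. It differed from 0 at 6 of 8243 genes (0.0728%; interaction of class and genotype in edgeR's quasi-likelihood test, adjusted p under 0.05), above 0 at 1 (0.0121%) and below 0 at 5 (0.0607%). Of the 25 late spermatid markers 0 differed (median interaction 0.37 against -0.06 over all genes). Before adjustment 7 were above and 1 below 0 at p under 0.05, and DESeq2 called 0. A value that did not pass does not show equal ratios: in simulated sums, 0 of 172 genes given a log2 interaction of 1 passed. Among all 262 genes of the spermatid lists 1 passed, a gene of mRNA storage. It was Ybx3, the gene of a protein that binds stored mRNAs and the 1 gene with an interaction above 0. It had 167 and 1883 CPM in the elongating spermatid-like cells of WT replicates 1 and 2 against 2018 and 2958 CPM in other cells, and 1892 and 1300 CPM against 2107 and 1863 CPM in Ctcf-cKO replicates 1 and 3 (interaction on the log2 scale 1.33 ± 0.28, adjusted p = 0.0053 from edgeR). Ybx3 was lower in the elongating spermatid-like cells of every mouse, by far the most in WT replicate 1, without which the interaction was -0.13. Rplp0, a ribosomal protein, was higher in the elongating spermatid-like cells of both WT mice, at 1297 and 923 against 474 and 699 CPM, and lower in those of both Ctcf-cKO mice, at 653 and 676 against 795 and 887 CPM (-1.56 ± 0.33, adjusted p = 0.0053 from edgeR).

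At Apoe, Defb19 and Serinc3 the classes lay further apart in Ctcf-cKO, with the other cells higher. Apoe, a lipid carrier made by somatic cells of the testis, had 151 and 207 CPM against 202 and 200 CPM in WT and 1602 and 2203 CPM against 4176 and 4464 CPM in Ctcf-cKO (interaction -1.33 ± 0.29, adjusted p = 0.0069 from edgeR). Defb19, a defensin on the Sertoli list, had 139 and 50.6 against 74.6 and 61.3 CPM in WT and 196 and 222 against 745 and 844 CPM in Ctcf-cKO (-2.56 ± 0.51, adjusted p = 0.0026). Serinc3, a membrane protein, had 234 and 231 against 304 and 207 CPM in WT and 592 and 634 against 1379 and 1731 CPM in Ctcf-cKO (-1.53 ± 0.36, adjusted p = 0.029 from edgeR). The noncoding gene Gm42418 had 3756 and 1384 against 4040 and 1021 CPM in WT and 1627 and 1881 against 4166 and 6061 CPM in Ctcf-cKO (-1.98 ± 0.23, adjusted p = 2.5e-13 from edgeR), so that the WT mice differed in direction and both Ctcf-cKO mice were higher in the other cells. In barcodes under 200 genes Gm42418 had 2777, 9045, 16450 and 16525 CPM, above both classes in every mouse but WT replicate 1. The part of free RNA in its interaction was not tested. Other cells with over 1% of somatic counts made up 11.7% and 2.06% in WT and 78.0% and 84.8% in Ctcf-cKO. Leaving them out kept 40 of 182 and 30 of 197 other cells in Ctcf-cKO, so less could be detected. In that setting 0 genes passed the threshold in edgeR, with 337 of 5769 at an unadjusted p under 0.05. Defb19 is on the lists that removed these cells. The part of somatic cells in these interactions was not tested. With WT replicate 2 left out the interaction was above 0 at 128 genes, and with WT replicate 1 left out it was below 0 at 19 and above 0 at none. With Ctcf-cKO replicate 1 left out it was above 0 at 2 and below at 1, and with the other Ctcf-cKO mouse left out above 0 at 3 and below at none. DESeq2 called 1 below 0 and none above, and 258 genes had an unadjusted p under 0.05 in edgeR.

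Between genotypes within the elongating spermatid-like cells, 106 of 3477 genes tested differed (3.05%; edgeR's quasi-likelihood test, adjusted p under 0.05), 105 of them higher in Ctcf-cKO (3.02%) and 1 lower (0.0288%). Among 193 tested genes of the spermatid lists 0 passed the threshold in edgeR, while before adjustment 2 higher and 9 lower genes had p under 0.05, and 1 higher and 1 lower gene passed in DESeq2. The median log2 fold change was -0.19 for the 25 late spermatid markers, -0.12 for 16 outer dense fibre genes, 0.06 for 14 fibrous sheath genes, -0.18 for 25 manchette genes, -0.48 for 23 acrosome genes, 0.08 for 17 glycolysis genes, 0.22 for 17 mRNA storage genes and -0.04 for 6 kinases, against -0.01 over all genes. The medians of the other lists were -0.08 for 11 histone genes, -0.16 for 23 axoneme genes, -0.25 for 17 transcription regulators, -0.37 for 5 channel genes, -0.16 for 13 ADAM genes and -0.27 for 9 meiotic markers. A value that did not pass the threshold does not show equal levels: in simulated sums, 0 of 172 genes given a log2 fold change of 1 passed. Hmgb4 had 8250 and 4361 CPM in WT and 2391 and 2969 CPM in Ctcf-cKO, with both Ctcf-cKO mice below both WT mice (-1.28 ± 0.41, adjusted p = 0.15 from edgeR). In the other cells 10 of the 25 late markers were lower in Ctcf-cKO, beside 394 of 11020 genes (3.58%), with Oaz3, Spem1, Smcp and Tssk6 among them. Other cells with over 1% of somatic counts made up a larger part there. The lower levels and the makeup of the other cells thus cannot be told apart. Some elongating spermatid-like cells passed the same 1% line, so it does not by itself mark somatic cells.

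The single lower gene was Acsl5, an enzyme that activates long-chain fatty acids, with 159 and 77.1 CPM in WT and 10.7 and 5.28 CPM in Ctcf-cKO (log2 fold change -3.78 ± 0.93, adjusted p = 0.041 from edgeR), from 40, 32, 3 and 1 counts. In the other cells it had 28.7, 27.4, 24.0 and 22.1 CPM.

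The higher genes were led by genes of other cell types. Of 16 Leydig genes tested, 11 were higher (median log2 fold change 5.16, or 4.80 with the 3 genes at 0 counts in WT set to the bound that 3 counts over both mice give). Their sum was 119 and 412 CPM in the elongating spermatid-like cells of WT and 5625 and 5151 CPM in those of Ctcf-cKO, and it was lower than in the other cells of every mouse, which had 1920, 473, 18498 and 16795 CPM. In barcodes under 200 genes the same list had 629, 707, 8791 and 8337 CPM, so in all 4 mice the elongating spermatid-like cells lay below the free RNA. Ptgds changed by 4.95 ± 0.54 (adjusted p = 0.00011 from edgeR), Agt by 5.14 ± 0.52, Fabp3 by 5.33 ± 0.69 and Aldh1a1 by 4.37 ± 0.51. Of 10 Sertoli genes 2 were higher (Aard by 2.41 ± 0.43), of 5 macrophage genes 2 (Lyz2 by 4.65 ± 0.88) and of 4 interstitial genes 2 (Dcn by 3.78 ± 0.73), and the sums of these lists were 262, 364, 1699 and 1648 CPM, 115, 260, 532 and 1374 CPM, and 27.8, 207, 1638 and 1009 CPM. In the barcodes under 200 genes they were 180, 551, 2641 and 2712 CPM, 19.98, 233, 1068 and 875 CPM, and 150, 357, 1456 and 1194 CPM, so the elongating spermatid-like cells lay above the free RNA in 1 mouse for Sertoli, in 3 for macrophage and in 1 for interstitial genes.

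Genes of red blood cells and mitochondria were higher as well. Of 4 haemoglobin genes 3 were higher, and Hbb-bs, a beta chain of adult haemoglobin, had 7.93 and 4.82 CPM in WT and 1174 and 682 CPM in Ctcf-cKO (log2 fold change 7.17 ± 0.58). The haemoglobin sum was 7.93, 14.5, 1813 and 930 CPM against 49.9, 11.2, 1430 and 2001 CPM in the barcodes under 200 genes, above the free RNA in 2 mice. Of 8 mitochondrially encoded genes 7 were higher, and their sum was 63.5 and 967 CPM in WT and 7887 and 9853 CPM in Ctcf-cKO, against 939, 6462, 62331 and 66709 CPM in the barcodes under 200 genes. Mt-Nd4, a subunit of respiratory complex I, changed by 4.12 ± 0.66 and Mt-Cytb by 4.28 ± 0.84. The mitochondrial share of all counts per elongating spermatid-like cell had a median of 0%, 0.0763%, 0.862% and 1.0%. At 24 of the 105 genes both WT mice had 0 counts in the elongating spermatid-like cells, so these genes passed the filter on low genes through Ctcf-cKO alone. Measured against 3 counts over both WT mice, the Ctcf-cKO level was 13.7-fold to 53.0-fold higher. This is a lower bound only if each count is 1 molecule. Among the 8 genes with the largest fitted values this bound was 53.0 for Hba-a1, 45.0 for Ephx1, 43.6 for Hbb-bt, 37.4 for Col1a2, 34.6 for Hsd3b1, 25.1 for Cyp11a1 and Tmem35a, and 24.6 for Scd2. All 105 genes were also higher in Ctcf-cKO in the other cells, where 1807 of 11020 genes were (16.4%, within 20% that differed in either direction), which is 100% of the calls in the elongating spermatid-like cells and 5.81% of those in the other cells. The part of free RNA in this difference was not tested.

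With WT replicate 2 left out 310 genes were higher and 133 lower, and with WT replicate 1 left out 17 were lower. With Ctcf-cKO replicate 1 left out 68 were higher and 6 lower, and with the other Ctcf-cKO mouse left out 2 were lower. Where at least 10 counts were required in the elongating spermatid-like cells of every mouse, 7 genes were higher and 0 lower.

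**Figure D5:**
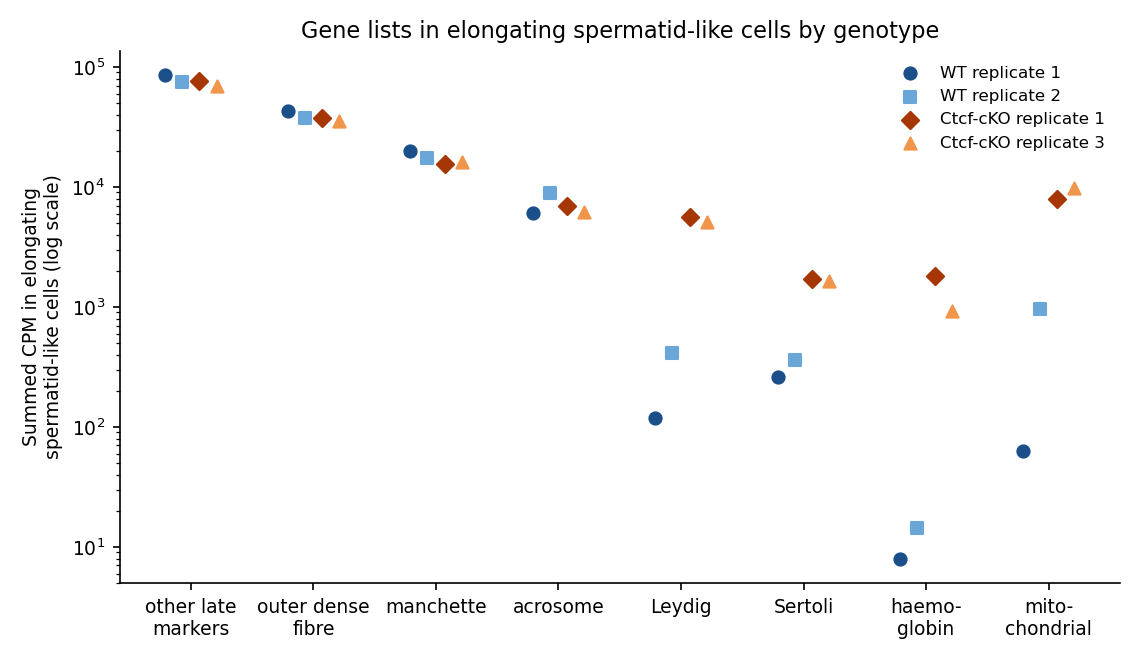
Summed CPM (vertical axis, log scale) of 8 gene lists in the elongating spermatid-like cells, with 1 symbol per mouse. Late marker, outer dense fibre and acrosome sums overlap between genotypes. Manchette sums are lower in both Ctcf-cKO mice (15561 and 16002 against 19796 and 17520 CPM), with 0 of 25 manchette genes past the threshold. The sums of histone, axoneme and transcription regulator genes, which are not drawn, were also lower in both Ctcf-cKO mice. Leydig, Sertoli, haemoglobin and mitochondrial genes lie higher in both Ctcf-cKO mice than in both WT mice.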

How the data were processed

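Single cell RNA-seq counts of testis cells from 2 WT and 2 Ctcf-cKO mice were used, 1 table per mouse. The authors captured cells on ddSEQ and mapped reads to GRCm38. Their deposited tables hold raw counts, in whole numbers, for each gene symbol in each barcode. The counting tool, how reads of one molecule were merged, and whether strand was used are not given in the sources used here. Values of 1 to 4 made up 84.4% to 90.3% of nonzero values and the value 5 only 2.81% to 3.54%, so a count may not be 1 molecule.

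Barcodes with 200 to 7000 genes and at most 10% mitochondrial counts, the filter of the study, numbered 4227, 2075, 327 and 293 in the 2 WT and then the 2 Ctcf-cKO mice. Those with at least 4338, 2379, 1299 and 909 counts were kept as cells (96, 242, 228 and 246), and the 20% with the highest share of Tnp1, Tnp2, Prm1 and Prm2 were taken. No doublets were called. Leaving out the deepest 5% of barcodes stood in for it. The cells and gene lists were chosen with earlier results of these data known. Of 25824 gene symbols 25224 matched the GENCODE annotation of GRCm38, and 21 to 23 symbols per table had become dates (at most 0.245% of counts).

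Counts without the 4 genes were summed per mouse and class (189287 to 1973998 counts) and tested with the quasi-likelihood F test of edgeR 4.0.16 in R 4.3.3 after filterByExpr and TMM scaling. A gene was called at a Benjamini-Hochberg adjusted p under 0.05, with mouse as block for classes, the interaction for genotype differences of the contrast, and genotype alone within a class. Standard errors were taken as the absolute log2 fold change over the root of the F statistic. For single values per mouse, exact permutation tests (two-sided, scipy 1.17.1) were run. The edgeR fits were tested on simulated sums, the other steps were not. At a simulated log2 fold change of 1, 25 of 180 changed genes were found between classes. For the interaction 0 of 172 were found, and for genotype within elongating spermatid-like cells 0 of 172. At a log2 fold change of 2 the numbers were 113 of 172, 23 of 180 and 65 of 168.

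Named genes were the 12 largest changes per direction in all 4 mice with at least 50 CPM, for genotype comparisons the 8 largest with the genotypes apart, and genes from the 4 with the most counts of each list, of which mainly those past the threshold are given. Other symbols name genes of a list that passed. Alternatives were DESeq2 1.42.0, other scalings and filters, other cuts and rankings, thinning to 900 counts and each mouse left out. Counts divided by 4 and rounded up were added after seeing the data. Intervals and floors (3 counts) cover counting error only and take each count as 1 molecule. With several counts per molecule the intervals are too narrow and the floors too low.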

Additional observations from a re-analysis of the deposited data

Results flagged for a closer look

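At 6 genes the ratio between elongating spermatid-like and other cells differed between WT and Ctcf-cKO by the test of that difference itself, the interaction in edgeR's quasi-likelihood test. On the log2 scale the interaction was 1.33 for Ybx3, -2.56 for Defb19, -1.98 for Gm42418, -1.56 for Rplp0, -1.53 for Serinc3 and -1.33 for Apoe, where a negative value means a lower ratio of elongating spermatid-like to other cells in Ctcf-cKO than in WT, whichever class was higher. The 6 genes are 0.0728% of the 8243 genes tested. The same 6 passed when the limit on counts per cell was doubled, 4 passed with RLE size factors, 1 in DESeq2 and none when cells were thinned to 900 counts. Without WT replicate 1 the value for Ybx3 was -0.13, and Rplp0 was the only one of the 6 that was higher in elongating spermatid-like cells of WT and lower in those of Ctcf-cKO in all 4 mice. What sets these 6 genes apart was not tested.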

How the results depend on the processing

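With 19 to 49 elongating spermatid-like cells per mouse and 2 mice per genotype, genotype differences rest on few counts for most genes. Of the 8243 genes tested against other cells, 806 were higher and 1286 lower. DESeq2 shared 1968 of these 2092 calls and RLE size factors 2074, and none had the opposite direction. The number of higher and lower genes was 385 and 519 with at least 10 counts in every sum, 408 and 713 without the deepest 5% of barcodes, 111 and 338 with cells thinned to 900 counts, and 20 and 9 against the 30% of cells next in rank. It was 520 higher for the top 10% of cells, 846 lower with the count limit doubled, and 764 lower with somatic cells left out of the other cells, where 14 shared calls turned. Leaving out each mouse gave 424 to 637 higher and 602 to 879 lower genes.

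No paired analysis was possible because the genotypes share only replicate number 1. Elongating spermatid-like and other cells come from the same mice, which were the block, and with no replicate block 219 genes were higher and 65 lower, all 284 of them called the same way with the block.

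The interaction of class and genotype was above 0 at 1 gene and below 0 at 5. The numbers above and below 0 were 3 and 2 with library totals, 0 and 1 in DESeq2, and 2 and 2 with no filter on low genes. They were 0 and 0 for the top 10%, and 0 and 1 for the top 30%. They were 9 and 2 when cells were ranked by Tnp1 and Tnp2, and 0 and 1 when ranked by Prm1 and Prm2. With the count limit doubled they were 5 and 8, and without the deepest barcodes 6 and 1. With cells thinned they were 0 and 0, and with counts divided by 4 they were 0 and 1. Against the 30% of cells next in rank they were 0 and 0, as they were with other cells over 1% of somatic counts left out. With at least 10 counts in every sum 0 were above 0, and with RLE size factors 3 were below. Leaving out each mouse gave 0 to 128 above and 0 to 19 below.

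Within elongating spermatid-like cells 105 genes were higher in Ctcf-cKO and 1 lower. The numbers higher and lower were 52 and 0 with library totals, 7 and 0 with at least 10 counts in every sum, 52 and 3 for the top 10%, 27 and 0 with the count limit doubled, 35 and 5 with cells thinned, and 56 and 0 with counts divided by 4. The number lower was 0 with RLE size factors, 2 in DESeq2, 8 with no filter on low genes, 0 for the top 30%, 0 when ranked by Tnp1 and Tnp2, and 2 without the deepest barcodes. Leaving out each mouse gave 68 to 310 higher and 2 to 133 lower.

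Values that changed sign were those of the following genes. With other cells over 1% of somatic counts left out, the log2 fold change between classes was 1.32 for Agt, 1.08 for Lyz2, 1.34 for Ptgds, 0.91 for Sparc and 0.60 for Vim. These genes are on the lists by which only other cells were removed, so the changes of sign cannot be read as differences between the classes. For Hils1 it was -0.27 with at least 10 counts in every sum, -0.035 when ranked by Prm1 and Prm2, -0.11 with cells thinned and -0.34 against the 30% of cells next in rank. For Ybx2 it was -0.12 with cells thinned. The genotype difference of the contrast was 0.21 for Apoe against the 30% of cells next in rank. With other cells over 1% of somatic counts left out it was 0.20 for Apoe and 0.22 for Serinc3. For Ybx3 leaving out each mouse gave -0.13 (without WT replicate 1) to 3.40. The number of genes per cell at 900 counts differed by -11.3 against the 30% of cells next in rank, and without the 4 genes by 2.53. The cause of these shifts was not tested.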
